A study of Mus musculus with 13 samples.

Results

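Nucleoporins and mRNA export factors were followed in CD4 single-positive thymocytes before and after antigen stimulation. The members were the protein-coding genes whose symbol begins with Nup and a number, the THO complex genes *Thoc1* to *Thoc7* where annotated, and 14 genes named singly: *Nxf1*, *Nxt1*, *Alyref*, *Ddx39b*, *Ncbp1*, *Ncbp2*, *Tpr*, *Rae1*, *Gle1*, *Xpo1*, *Aaas*, *Ranbp2*, *Seh1l* and *Sec13*. The rule found 41 genes among 35906 in the annotation used, of which 21849 were protein-coding. Pore proteins whose genes carry other symbols were not taken in, among them NUP58 and NUP42, which this annotation lists as *Nupl1* and *Nupl2*.

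The nuclear pore complex is the channel through which RNA and proteins cross the nuclear envelope. Its scaffold consists of outer rings of the Y complex and an inner ring anchored in the membrane, its channel is lined by proteins rich in phenylalanine-glycine repeats, and filaments extend from its cytoplasmic face and a basket from its nuclear face. During transcription and splicing, the cap-binding complex and the TREX complex (THO subunits, the helicase DDX39B and the adaptor ALYREF) load messenger RNA onto the receptor NXF1-NXT1, which carries it through the pore, and helicase activity stimulated by GLE1 releases it at the cytoplasmic side. XPO1, a receptor driven by the GTPase Ran, exports proteins, ribosomal subunits and some RNAs. A resting T cell is small and makes little RNA, and antigen stimulation is known to bring a general increase in RNA and protein synthesis.

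All mice carried the rearranged Lm54 T cell receptor as a transgene on a Rag1-/- background, so that their thymocytes bear 1 receptor, which recognizes listeriolysin O (LLO). In CtslΔTEC mice, cathepsin L was deleted in thymic epithelial cells by Foxn1-cre, and the thymocytes themselves kept the gene, so that *Ctsl* in these libraries is no check of the genotype. The control mice are labelled Ctsl fl/fl (WT) and called Ctsl+/+ in the study, without further detail on Cre. Thymocytes of the mature M2 stage (CD69-MHCI+) were sorted and either kept unstimulated, from 5 CtslΔTEC and 4 control mice, or cultured for 4 h on plate-bound LLO:I-Ab monomer at 1 µg/ml with soluble anti-CD28 at 250 ng/ml, from 2 CtslΔTEC and 2 control mice. Each library came from 1 mouse, ages were not given for single mice, and no library was cultured without stimulus.

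Sequencing depth was 25692380 to 39127833 estimated counts per library before stimulation and 8085463 (control mouse 5) to 27184520 after it. The summed CPM of 6 activation genes was between 182 and 299 in unstimulated libraries, and 8610 and 10100 in stimulated control and 11200 and 11600 in stimulated CtslΔTEC libraries, and that of 6 T cell identity genes was 4010 or more in every library. Markers of other cells were low, with at most 1.90 CPM for 4 B cell genes, 17.3 CPM for 5 myeloid genes, 21.8 CPM for 6 thymic epithelial genes and 116 CPM for 4 erythroid genes, and 3 proliferation genes reached at most 42.7 CPM. In control libraries the erythroid, myeloid and proliferation sums were 30.8 to 60.8, 10.6 to 17.3 and 21.5 to 32.3 CPM before stimulation. After it they were 6.29 to 8.87, 4.5 to 9.2 and 8.74 to 9.75 CPM. In CtslΔTEC libraries the erythroid and myeloid sums also fell, and the proliferation sums overlapped. The thymic epithelial sums rose in control libraries. The part of these lists in the response was not tested. File names carried 3 date codes, and all stimulated libraries had a code of their own, so that date and stimulation cannot be told apart. Y-linked transcripts were present in all 5 unstimulated CtslΔTEC libraries and in 1 of the 4 unstimulated control libraries, and in 1 of 2 libraries of each stimulated group.

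Promoter sequence is shown for 3 members that represent the main patterns described below: *Nup54*, among the members that rose most upon stimulation, and *Xpo1* and *Nup210*, which fell. The sequences are the 250 bases before the RefSeq transcription start (build GRCm38.p6), 5′ to 3′ on the strand of the gene, with capitals for the motifs found. *Nup54* lay at chr5:92435200-92435449 on the minus strand, *Xpo1* at chr11:23255791-23256040 on the plus strand and *Nup210* at chr6:91116827-91117076 on the minus strand.
Nup54: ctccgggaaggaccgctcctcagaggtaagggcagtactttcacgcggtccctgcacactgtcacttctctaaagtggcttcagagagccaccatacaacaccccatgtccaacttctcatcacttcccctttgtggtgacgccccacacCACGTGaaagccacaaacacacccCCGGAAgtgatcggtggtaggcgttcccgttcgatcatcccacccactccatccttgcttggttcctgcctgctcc
Xpo1: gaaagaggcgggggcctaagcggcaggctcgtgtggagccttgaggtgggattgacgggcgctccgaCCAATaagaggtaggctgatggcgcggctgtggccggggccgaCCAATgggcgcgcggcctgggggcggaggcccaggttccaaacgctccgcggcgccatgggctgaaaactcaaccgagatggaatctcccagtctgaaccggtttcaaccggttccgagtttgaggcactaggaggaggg
Nup210: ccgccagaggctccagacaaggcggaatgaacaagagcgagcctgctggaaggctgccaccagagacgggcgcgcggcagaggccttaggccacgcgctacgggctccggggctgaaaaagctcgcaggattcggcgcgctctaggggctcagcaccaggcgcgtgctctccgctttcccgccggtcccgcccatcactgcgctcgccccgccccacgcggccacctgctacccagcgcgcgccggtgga
A set of 5 motifs was searched on either strand, in a window that ran 50 bases past the start. RefSeq gave this window for 33 members and for 17492 protein-coding genes in all. The E-box CACGTG, bound by MYC and related factors, was in 12.1% of member promoters (*Nup54*, *Nup93*, *Nup188* and *Ranbp2*) and in 8.91% of all. The ETS core CCGGAA was in 42.4% of member promoters and 20.9% of all, and the palindromic NRF1 motif of 10 bases in 9.09% (*Nup50*, *Nup62* and *Nup107*) and 1.47%. CCAAT, bound by NFY, was in 42.4% and 42.3%, and the CRE TGACGTCA in 6.06% (*Nup133* and *Nup214*) and 2.54%. *Nup54* held an E-box and an ETS core, which do not overlap, *Xpo1* held CCAAT at 2 positions, and *Nup210* held none of these letters in this window.

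The members together took 2298 to 2507 TPM (a level per library that is corrected for transcript length) in unstimulated control libraries and 3083 and 3624 TPM in stimulated ones. In CtslΔTEC cells the sums were 2413 to 2662 and 3581 and 3864 TPM. Thus, the stimulated libraries lay above the unstimulated ones in either genotype. As these are shares of a library's RNA, a gain of these transcripts and a loss of other RNA cannot be told apart, nor can fewer cells of a type and less RNA per cell.

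*Ddx39b*, which encodes the TREX helicase, was the member with the highest level, with 436 ± 22.3 TPM (SD, n = 4) in unstimulated control cells. *Nup210*, a membrane-spanning pore protein that is not part of the pore in all cell types, followed with 231 ± 32.7 TPM and *Nxf1* with 185 ± 5.70 TPM, and in stimulated control cells these 2 levels did not differ beyond their spread, at 188 ± 31.8 and 202 ± 36.9 TPM (SD, n = 2). These levels sum all transcripts of a gene. On protein-coding transcripts alone, *Nup210* was the lower, at 98.9 to 140 TPM against 161 to 172 TPM for *Nxf1* in unstimulated control libraries. In stimulated control libraries *Nup210* was at 63.7 and 79.4 TPM and *Nxf1* at 153 and 186 TPM on these transcripts. Genes of the Y complex and the inner ring were lower, between 9.71 ± 0.514 TPM for *Nup133* and 73.7 ± 2.22 TPM for *Nup85*. Of the *Nup85* level, 21.6 to 23.0 TPM was on protein-coding transcripts. *Nup210l*, a relative of *Nup210* known from testis, was at 0.903 ± 0.0945 TPM, and *Nup62cl*, a relative of *Nup62*, was listed at 0 in all 13 libraries and was not tested. Upon stimulation *Thoc1* moved from rank 15 to rank 7 of the 41 levels in control cells, and *Xpo1* from rank 13 to rank 29. Most of the *Thoc1* level was on transcripts not annotated as protein-coding. Its protein-coding transcripts were at 6.09 to 8.57 TPM in unstimulated and 13.6 and 16.3 TPM in stimulated control libraries. *Ddx39b* shares long stretches of sequence with its paralog *Ddx39*, and the division of reads between them is an estimate.

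**Figure D1:**
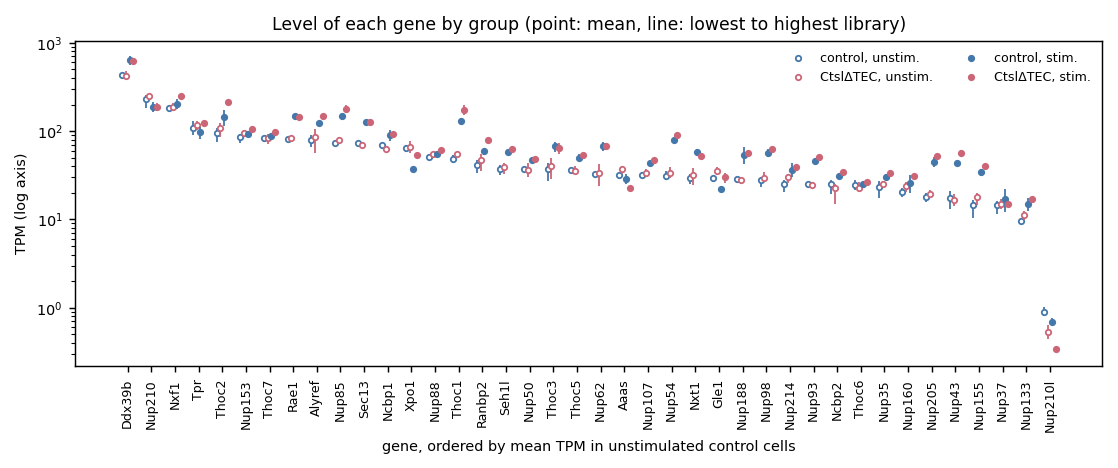
Level of 40 members in each group in TPM on a logarithmic axis, ordered by the mean in unstimulated control cells, with points for group means and lines from the lowest to the highest library (n = 4, 5, 2 and 2). *Ddx39b* leads in every group, *Nup210l* is the lowest, and *Nup62cl* is left out because it was listed at 0.

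Most members rose within 4 h of stimulation. In control cells 29 of 40 tested members were higher and 5 lower than in unstimulated cells at an edgeR adjusted p under 0.1, where 32.9% of all 14241 genes tested were higher and 34.8% lower (67.7% in all), and the median log2 fold change was 0.57 over the members and 0.01 over all genes. In CtslΔTEC cells 31 members were higher and 5 lower, beside 32.9% and 38.2% of all genes (71.2% in all), with medians of 0.74 and −0.06. The members that rose belonged largely to the pore scaffold, the central channel and the mRNA export machinery, with some at the cytoplasmic face and in the nuclear basket, and those that fell included the exportin *Xpo1*, the membrane nucleoporin *Nup210* and the cytoplasmic face genes *Gle1* and *Aaas*. Scaling to library totals alone moved the median of all genes to −0.08 in control and −0.21 in CtslΔTEC cells and left the members' medians at 0.48 and 0.60. Of the 34 calls in control cells 25 held in each of 24 alternative settings, and of the 36 in CtslΔTEC cells 30. Without stimulated control mouse 6 several calls in control cells were lost. The group was then 1 library, which was assumed to vary like the other groups, and *Aaas* had −0.21 (adjusted p = 0.179), *Nup160* 0.19 (0.332), *Nup214* 0.16 (0.363), *Nxf1* 0.15 (0.198) and *Thoc2* 0.31 (0.234).

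**Figure D2:**
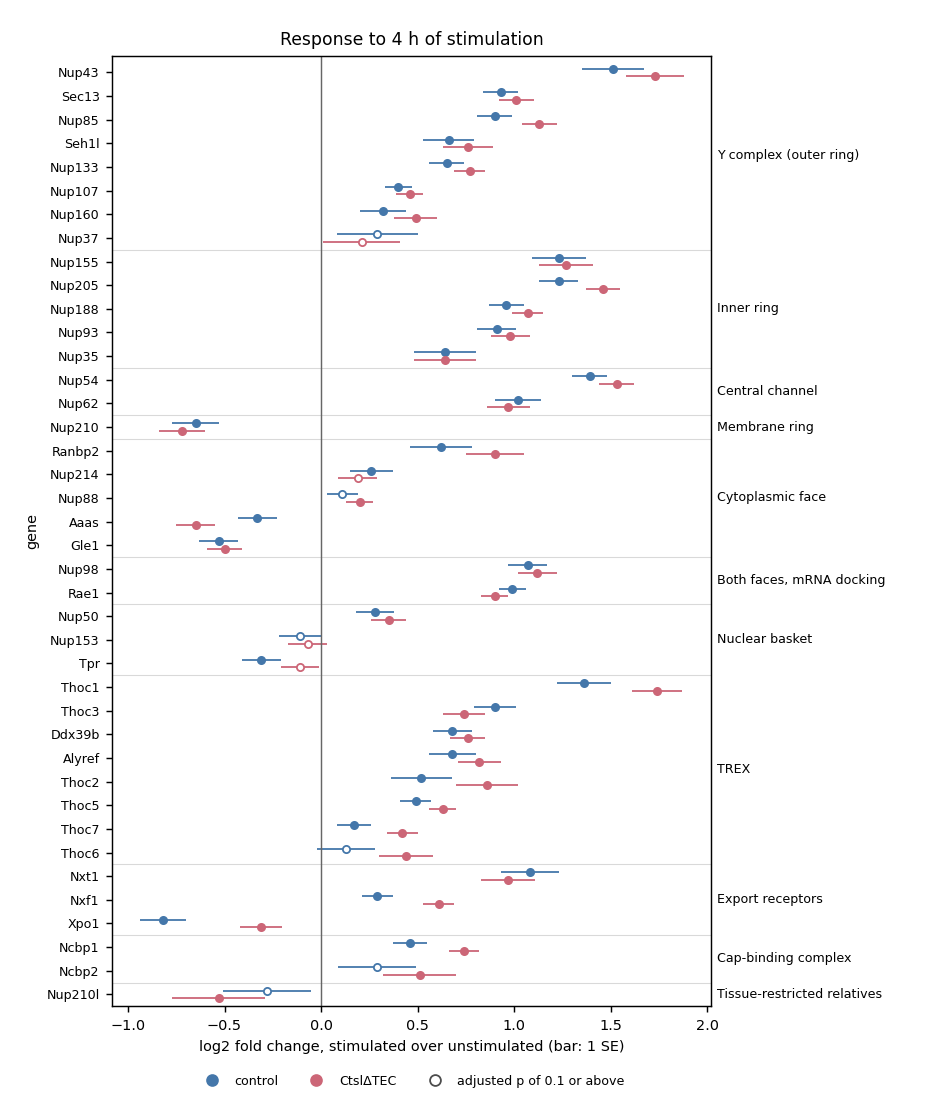
Log2 fold change of 40 members after stimulation in control (blue) and CtslΔTEC cells (red), grouped by place in the pore or export pathway, with bars of 1 SE and open symbols for an adjusted p of 0.1 or above. Scaffold, channel and TREX genes lie right of 0, and *Nup210*, *Xpo1*, *Gle1* and *Aaas* lie left of it in either genotype.

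Of 8 Y complex genes, 7 rose in either genotype, with a median log2 fold change of 0.66 in control and 0.77 in CtslΔTEC cells. *Nup43* rose most among all members in control cells. Its CPM (counts scaled to library size, not to length) were 8.94, 10.9, 11.6 and 13.6 in unstimulated and 30.4 and 34.0 in stimulated control libraries. In CtslΔTEC cells they were 9.28, 9.51, 11.3, 11.8 and 12.2 before and 32.2 and 39.3 after stimulation. Stimulated libraries thus lay clear of the unstimulated ones, with a rise of 2.85-fold in control (log2 fold change 1.51, SE 0.16, adjusted p = 8.3e-07, edgeR) and 3.32-fold in CtslΔTEC cells (1.73, SE 0.15, adjusted p = 7.4e-08). *Nup85*, *Sec13*, which is also a coat protein of secretory vesicles, *Seh1l* and *Nup133* rose by 0.65 to 0.93 on the log2 scale in control cells. *Nup107* and *Nup160* rose by 0.40 and 0.32. *Nup37* did not pass the test, with values of 0.29 (adjusted p = 0.255) and 0.21 (adjusted p = 0.372), but passed in control cells without stimulated mouse 6 (0.68, adjusted p = 0.0145), the stimulated control libraries being at 15.9 and 8.70 CPM.

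The 5 inner ring genes, which encode the scaffold around the channel, all rose in either genotype, with medians of 0.96 and 1.07. *Nup205* stood at 66.2, 71.3, 73.2 and 87.0 CPM in unstimulated and at 167 and 182 CPM in stimulated control libraries. In CtslΔTEC libraries it ranged from 68.1 to 79.7 CPM before stimulation and was at 201 and 208 CPM afterwards. These groups did not overlap, and the fold changes were 2.35 in control (log2 1.23, SE 0.10, edgeR adjusted p = 5.1e-08) and 2.75 in CtslΔTEC cells (log2 1.46, SE 0.09, adjusted p = 2.9e-09). *Nup155* rose equally in control cells (1.23, SE 0.14), whereas *Nup35*, a membrane-binding subunit, rose least (0.64, SE 0.16).

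The channel genes *Nup54* and *Nup62* rose as well. *Nup54*, with the promoter shown above, had 32.5, 35.7, 36.0 and 36.0 CPM in unstimulated and 91.1 and 92.7 CPM in stimulated control libraries. The CtslΔTEC libraries had 32.7 to 41.1 CPM before and 100 and 112 CPM after stimulation. The lowest stimulated library was thus above all unstimulated ones, at fold changes of 2.62 (log2 1.39, SE 0.09, edgeR adjusted p = 6.9e-09) and 2.90 (log2 1.53, SE 0.09, adjusted p = 8.5e-10). *Nup62* rose 2.03-fold and 1.96-fold. *Nup98* and *Rae1*, whose products form a docking site for export complexes, rose 2.10-fold and 1.99-fold in control cells.

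The peripheral structures did not move as a group. At the cytoplasmic face *Ranbp2*, the large SUMO ligase and Ran-binding filament protein, rose (0.62 in control and 0.90 in CtslΔTEC cells), while *Gle1* and *Aaas* fell. *Gle1* was between 54.2 and 54.6 CPM in all 4 unstimulated control libraries and at 37.2 and 38.5 CPM in the stimulated ones. In CtslΔTEC libraries it went from 54.7 to 61.2 CPM to 35.7 and 45.7 CPM. The stimulated values were the lower ones in either genotype, and the log2 fold changes were −0.53 (SE 0.10, edgeR adjusted p = 0.000255) and −0.50 (SE 0.09, adjusted p = 0.000267). *Aaas*, mutated in triple A syndrome, had log2 fold changes of −0.33 and −0.65. In the nuclear basket *Nup50* rose (0.28 and 0.35, but 0.18 with adjusted p = 0.242 in control cells without stimulated mouse 5), *Nup153* did not pass the test (−0.11 and −0.07), and *Tpr*, the filament of the basket, fell in control cells (−0.31, adjusted p = 0.0173) with −0.11 in CtslΔTEC cells (adjusted p = 0.335). *Nup214* and *Nup88*, partners at the cytoplasmic face, had values between 0.11 and 0.26. *Nup214* passed the test in control cells (adjusted p = 0.0439) but not without unstimulated control mouse 1 (0.116). In CtslΔTEC cells it did not pass (0.19, adjusted p = 0.12), although it did in 13 of 24 alternative settings. *Nup88* passed in CtslΔTEC cells (0.20, adjusted p = 0.0252) but not without stimulated mouse 7 (0.357).

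*Nup210* was the most abundant member to fall. Unstimulated control libraries held 546, 700, 741 and 767 CPM and stimulated ones 416 and 462 CPM. CtslΔTEC libraries held 645, 645, 645, 646 and 667 CPM before and 369 and 420 CPM after stimulation. The stimulated libraries were the lower ones throughout, with log2 fold changes of −0.65 (SE 0.12, edgeR adjusted p = 0.00024) and −0.72 (SE 0.12, adjusted p = 6.4e-05). When the mean transcript length of each gene in each library entered the fit as an offset, these became −0.24 (adjusted p = 0.122) and −0.31 (adjusted p = 0.0378). The same offset took *Aaas* and *Tpr* in control cells to −0.09 and −0.12 and *Gle1* and *Xpo1* in CtslΔTEC cells to −0.15 and −0.21, with adjusted p of 0.659, 0.476, 0.277 and 0.132. *Nup210l*, at under 5 CPM throughout, passed the test in CtslΔTEC cells (−0.53, adjusted p = 0.068) but not when CtslΔTEC mouse 2, 3, 6 or 7 was left out (−0.40 to −0.62), and had −0.28 in control cells (adjusted p = 0.30).

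TREX rose nearly as a whole, with 7 of 8 genes higher in control cells (median 0.60) and 8 of 8 in CtslΔTEC cells (median 0.75). *Thoc1*, a THO core subunit, had 49.0, 53.9, 56.2 and 58.6 CPM in unstimulated and 128 and 151 CPM in stimulated control libraries. The CtslΔTEC libraries had 46.5, 53.0, 59.8, 61.5 and 71.3 CPM before and 184 and 206 CPM after stimulation. All stimulated values were far above the unstimulated ones, and the 2 stimulated CtslΔTEC libraries were also above the 2 stimulated controls. The rise was 2.57-fold in control (log2 1.36, SE 0.14, edgeR adjusted p = 4.8e-07) and 3.34-fold in CtslΔTEC cells (log2 1.74, SE 0.13, adjusted p = 1.2e-08). *Thoc3* rose 1.87-fold and 1.67-fold, and *Thoc2*, the THO scaffold, 1.43-fold and 1.82-fold. *Thoc5* rose by 0.49 and 0.63, *Alyref* by 0.68 and 0.82 and *Ddx39b* by 0.68 and 0.76 on the log2 scale. *Thoc6* passed the test in CtslΔTEC cells alone (0.44, adjusted p = 0.013, against 0.13, adjusted p = 0.465, in control cells), with 0.36 (0.13) when stimulated mouse 7 was left out, and its difference between genotypes was not called (0.31, adjusted p = 0.525). *Thoc7* rose little (0.17, adjusted p = 0.0874, and 0.42), and its call in control cells was lost when any of 11 of the 13 mice was left out, at 0.12 to 0.18.

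The export receptors went in opposite directions. *Nxt1*, the small subunit of the mRNA receptor, rose 2.12-fold in control and 1.96-fold in CtslΔTEC cells, and *Nxf1*, the large subunit, 1.22-fold and 1.53-fold. The unstimulated control libraries had 376, 378, 385 and 388 CPM of *Nxf1* and the stimulated ones 430 and 504 CPM. The CtslΔTEC libraries had 364, 367, 378, 380 and 414 CPM before and 572 and 593 CPM after stimulation. Groups did not overlap for *Nxf1*, with log2 fold changes of 0.29 (SE 0.08, edgeR adjusted p = 0.00692) and 0.61 (SE 0.08, adjusted p = 6.3e-06). *Ncbp1*, the large subunit of the cap-binding complex, rose by 0.46 and 0.74 and *Ncbp2*, the cap-contacting subunit, by 0.51 in CtslΔTEC cells, with 0.29 (adjusted p = 0.233) in control cells. The call of *Ncbp2* was lost without either stimulated CtslΔTEC mouse, at 0.50 (0.117) and 0.49 (0.137).

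*Xpo1* fell. Its CPM were 180, 194, 200 and 223 in unstimulated and 109 and 116 in stimulated control libraries. In CtslΔTEC libraries they were 174, 176, 203, 203 and 221 before and 145 and 170 after stimulation. The fall was thus clear of the spread in control cells, at 0.566 of the unstimulated level (log2 fold change −0.82, SE 0.12, edgeR adjusted p = 2.6e-05). In CtslΔTEC cells the highest stimulated library was just under the lowest unstimulated one, at 0.807 of the unstimulated level (log2 fold change −0.31, SE 0.11, adjusted p = 0.0254), and without stimulated mouse 6 the value was −0.22 (adjusted p = 0.226).

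**Figure D3:**
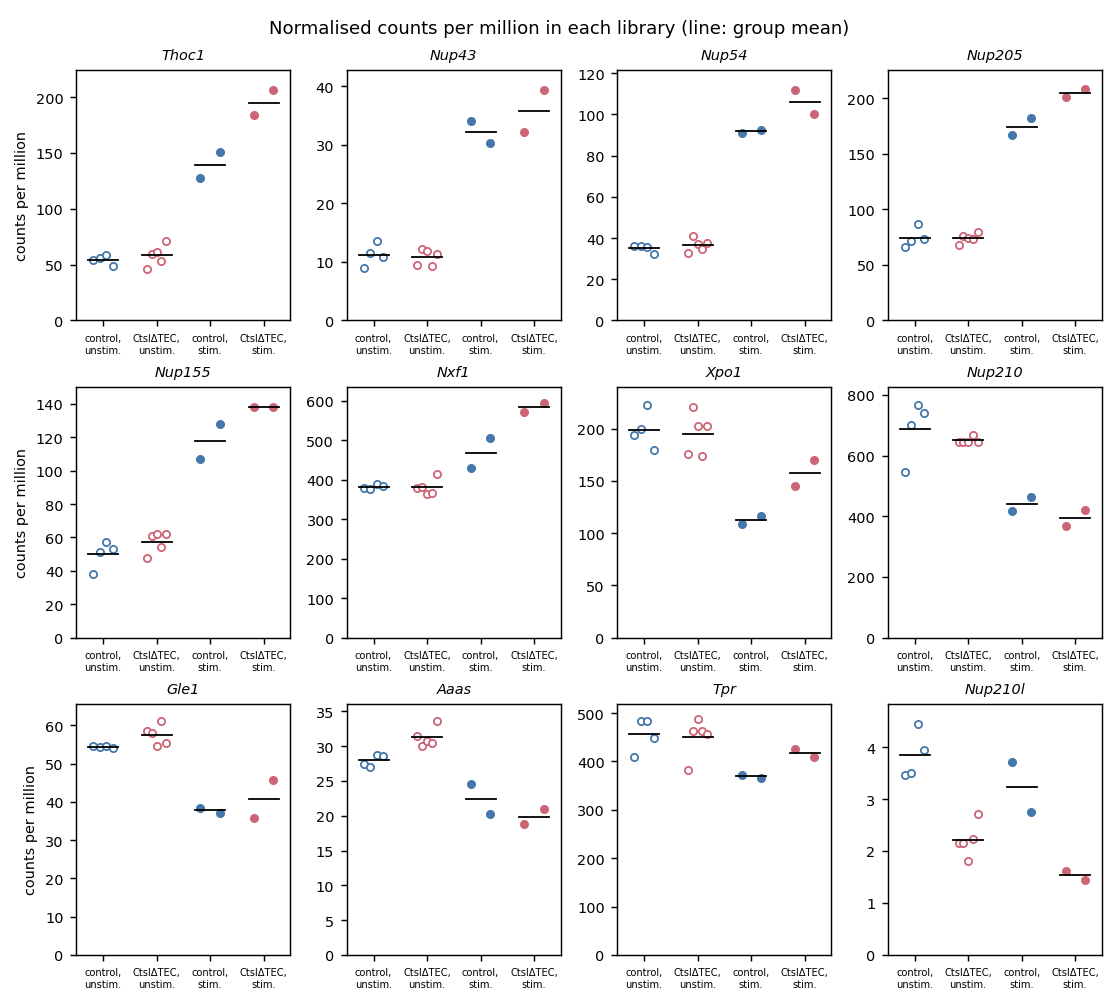
CPM of 12 members in every library by group, with open symbols for unstimulated and filled symbols for stimulated libraries and lines for group means (n = 4, 5, 2 and 2). *Thoc1*, *Nup43*, *Nup54*, *Nup205*, *Nup155* and *Nxf1* are higher and *Xpo1*, *Nup210*, *Gle1* and *Aaas* lower in stimulated libraries, and *Nup210l* is lower in CtslΔTEC libraries.

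Counts of a gene can come from its protein-coding transcripts or from transcripts annotated otherwise, chiefly with a retained intron, which as a class are often held in the nucleus. The ratio of the latter to the former was compared with limma on a log2 scale for 34 members and 7212 genes in all. The ratio was higher in stimulated libraries for 12 members in control and 17 in CtslΔTEC cells at an adjusted p under 0.1. Of all genes, 27.4% and 39.4% had a higher ratio. It was lower for none of the members, beside 4.02% and 3.72% of all genes. At an unadjusted p under 0.05 there were 13 and 17 members in either direction, beside 2605 and 3222 of the 7212 genes. The median differences of the members, 0.44 and 0.53, were close to those of all genes, 0.41 and 0.56. Without stimulated control mouse 6 the control counts were 7 members and 1128 in place of 1978 genes, and without CtslΔTEC mouse 6 or 7 the CtslΔTEC counts were 11 and 10 members and 1901 and 1764 in place of 2842 genes. The labels name polyadenylated RNA and the study rRNA depletion, and how much intron-containing RNA a library holds depends on which was used.

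*Xpo1* had the largest difference in control cells (2.18, SE 0.55, limma adjusted p = 0.0136). Other transcripts took 1.55, 1.55, 2.94 and 3.74% of its counts in unstimulated and 9.12 and 9.97% in stimulated control libraries. In CtslΔTEC libraries the shares were 1.01 to 6.04% before and 10.7 and 12.5% after stimulation (2.37, SE 0.54, adjusted p = 0.00535). The stimulated shares were the higher ones in all libraries, and *Xpo1* counts on protein-coding transcripts alone still had log2 fold changes of −0.88 (edgeR adjusted p = 3.3e-05) and −0.38 (adjusted p = 0.015). Among members past the threshold *Nup205*, *Nup214* and *Nup153* followed in control cells (1.51, 1.50 and 1.32). In CtslΔTEC cells the leading members past the threshold were *Ncbp2* (3.02, SE 0.99), *Xpo1*, *Nup107* (1.28) and *Nup153* (1.24). The *Ncbp2* value rests on few counts, with shares of 0 to 2.24% in unstimulated and 5.69 and 9.44% in stimulated CtslΔTEC libraries. Where the share was 0, the ratio depended on the count of 1 added to each class. For *Nup205* the share went from 7.28 to 15.4% in unstimulated to 22.2 and 29.3% in stimulated control libraries.

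*Nup210* also had a higher ratio after stimulation (0.95, SE 0.19, and 0.99, SE 0.19). Its main protein-coding transcript, Nup210-201, went from 117 ± 17.8 TPM (SD, n = 4) to 66.7 ± 8.85 TPM (n = 2) in control cells, whereas the retained-intron transcripts Nup210-205 and Nup210-209 were at 45.3 ± 6.53 and 40.8 ± 6.17 TPM before and 48.7 ± 12.1 and 44.6 ± 7.38 TPM after stimulation. The retained-intron levels thus overlapped between the groups, whereas the coding level did not.

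Other transcripts took a large share of some members at all times, among them *Thoc1*, *Ddx39b* and *Thoc7* (36.1 to 48.1% over all libraries). For *Thoc1* the share was 59.1 to 65.8% in unstimulated control and 58.6 to 68.6% in unstimulated CtslΔTEC libraries, and 64.3 to 68.3% in the 4 stimulated ones. Its coding transcript Thoc1-201 was at 6.70 ± 0.814 TPM (n = 4) in unstimulated and 14.1 ± 1.58 TPM (n = 2) in stimulated control cells, and the retained-intron transcript Thoc1-211 at 18.8 ± 1.37 and 54.2 ± 13.3 TPM. On protein-coding transcripts alone *Thoc1* rose by 1.23 (edgeR adjusted p = 7.3e-05) and 1.63 (adjusted p = 1.8e-06). The share of *Ddx39b* was between 36.2 and 42.6% in all libraries.

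**Figure D4:**
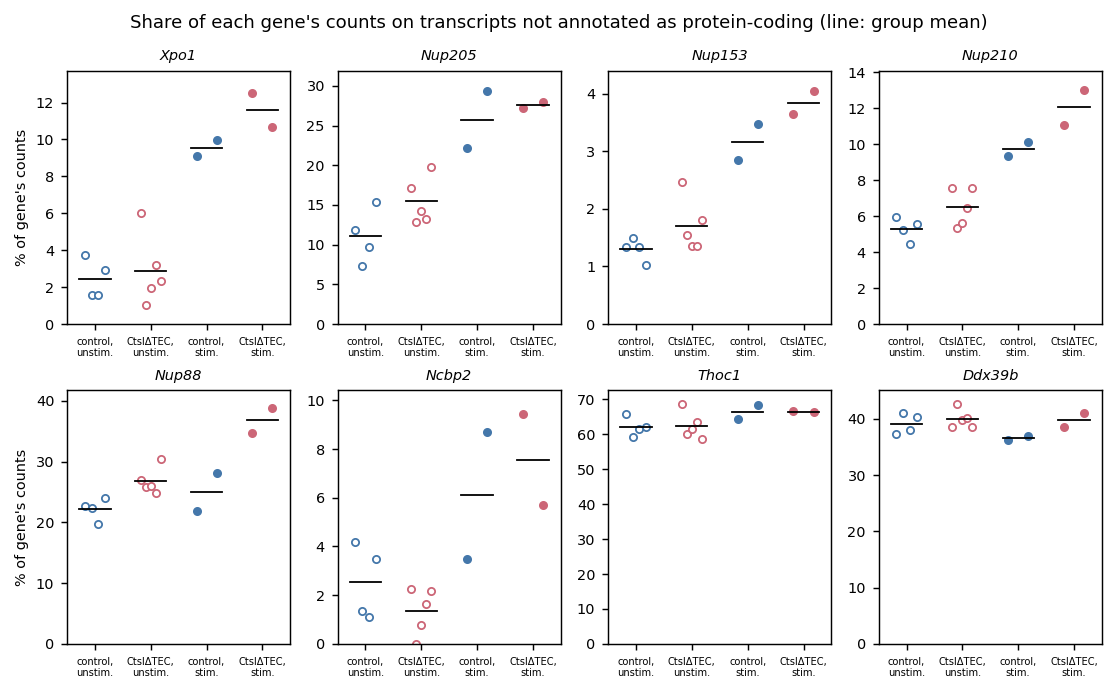
Percent of the counts of 8 members that fell on transcripts not annotated as protein-coding, in every library by group, with lines for group means (n = 4, 5, 2 and 2). *Xpo1*, *Nup205*, *Nup153* and *Nup210* have higher shares in all stimulated libraries, whereas *Thoc1* and *Ddx39b* keep about the same share.

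To ask whether the response differed between the genotypes, the response in CtslΔTEC cells was compared with that in control cells in the 4-group model. No member passed the edgeR test, beside 1.13% of all genes with a higher and 4.88% with a lower response in CtslΔTEC cells (6.01% in all). An unadjusted edgeR p under 0.05 was found for 4 members, beside 2322 of 14241 genes. The median difference was 0.09 over the members and −0.06 over all genes. *Xpo1* had the largest difference (0.51, SE 0.16, edgeR adjusted p = 0.104), followed by *Thoc1* (0.38, SE 0.19, adjusted p = 0.365), *Thoc2* (0.34) and *Nxf1* (0.32, SE 0.12, adjusted p = 0.174). *Aaas* had a value of −0.32 (SE 0.14, adjusted p = 0.256), and of −0.47 (adjusted p = 0.0917) without stimulated control mouse 6, where *Nxf1* (0.44, adjusted p = 0.0566) and *Ncbp1* (0.41, adjusted p = 0.0968) also passed. *Xpo1* passed when unstimulated CtslΔTEC mouse 2 (0.59, adjusted p = 0.0942) or 3 (0.62, 0.0594) or unstimulated control mouse 3 (0.56, 0.092) was left out, and *Nxf1* without unstimulated CtslΔTEC mouse 2 (0.41, 0.0869). DESeq2 called 2 members, *Xpo1* (0.55, adjusted p = 0.0305) and *Nxf1* (0.36, adjusted p = 0.0208). The split of all calls was 161 higher and 695 lower with edgeR and 309 and 741 with DESeq2. With edgeR it was 49 and 291 without stimulated control mouse 5, 340 and 887 without control mouse 6, 62 and 272 without stimulated CtslΔTEC mouse 6 and 99 and 516 without mouse 7, and the lower calls were 438 and 399 without unstimulated CtslΔTEC mice 2 and 3. For the ratio of transcript classes, 0 of 34 members had an unadjusted limma p under 0.05, beside 585 of 7212 genes. After adjustment the ratio was called for 0 members, beside 0.0555% of genes higher and 0.0693% lower. These shares stand for 4 and 5 genes, which were 307 and 80 without stimulated control mouse 6, 58 and 54 without CtslΔTEC mouse 7 and 24 and 17 without CtslΔTEC mouse 6.

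In unstimulated cells few members differed between the genotypes. No member was higher and 2 were lower in CtslΔTEC cells (edgeR adjusted p under 0.1), where 6.42% of 13152 genes were higher and 8.36% lower. An unadjusted edgeR p under 0.05 was found for 3 members, beside 3167 of all genes. The median log2 fold change was 0.01 over the members and 0.01 over all genes. *Ncbp1* had 117, 124, 131, 132 and 138 CPM in CtslΔTEC and 146, 147, 153 and 153 CPM in control libraries. The groups did not overlap, but the difference was small (−0.22, SE 0.06, edgeR adjusted p = 0.0421). *Nup210l* had 1.80, 2.15, 2.16, 2.24 and 2.71 CPM in CtslΔTEC and 3.47, 3.51, 3.94 and 4.45 CPM in control libraries, again without overlap (−0.79, SE 0.16, edgeR adjusted p = 0.00722). *Aaas* and *Gle1*, which were not called, were higher in CtslΔTEC libraries, also without overlap. Within the libraries of the second date code, *Ncbp1* had a value of −0.17 (adjusted p = 0.0978) and *Nup210l* of −0.81 (adjusted p = 0.0361). Without control mouse 2 *Ncbp1* had −0.21 (adjusted p = 0.117). With the level of Y-linked transcripts in the fit the values were −0.25 (adjusted p = 0.365) and −0.84 (adjusted p = 0.179). All other members gave values between −0.16 and 0.20, and scaling to library totals alone turned the split of all calls from 844 higher and 1099 lower to 1163 and 885. With the Y-linked covariate the calls over all genes were 118 and 304, and after thinning to the smallest library 309 and 506. The ratio of transcript classes was called for 0 members by limma, beside 0.0277% of genes higher and 0.0139% lower. Its unadjusted p was under 0.05 for 3 members, beside 561 of 7212 genes.

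In stimulated cells 3 members were higher and 1 lower in CtslΔTEC than in control cells (edgeR adjusted p under 0.1), beside 2.77% and 10.6% of 14241 genes. The counts over all genes, 395 higher and 1503 lower, were 112 and 854 without stimulated control mouse 5, 622 and 1613 without control mouse 6, 150 and 795 without CtslΔTEC mouse 6 and 203 and 1051 without CtslΔTEC mouse 7. Of the 40 members 29 had a positive value, and the median was 0.09 over the members and −0.05 over all genes. *Xpo1*, with the library values given above, was 1.40-fold higher (log2 0.48, SE 0.13, edgeR adjusted p = 0.036), *Nxf1* 1.25-fold (log2 0.32, SE 0.10, adjusted p = 0.0572) and *Thoc1* 1.40-fold (log2 0.48, SE 0.16, adjusted p = 0.0828). For each of these genes both CtslΔTEC libraries exceeded both control libraries. This also held for members that were not called, among them *Thoc2*, *Ranbp2* and *Tpr*, and *Rae1* and *Nup62* were lower without overlap. The lack of overlap thus does not set the 3 genes apart. *Thoc2* (0.44, adjusted p = 0.189) and *Ranbp2* (0.41, adjusted p = 0.207) did not pass, although each did in 2 of 24 alternative settings. *Nup210l* was at 1.45 and 1.62 CPM in CtslΔTEC and 2.76 and 3.71 CPM in control libraries (−1.04, SE 0.29, edgeR adjusted p = 0.0342). With 2 mice per group, none of the 4 calls held in each of 24 alternative settings, of which those without a stimulated mouse leave 1 library in its group. Without stimulated control mouse 5, the shallowest library, *Xpo1* had 0.43 (adjusted p = 0.216), *Nxf1* 0.20 (0.393), *Thoc1* 0.36 (0.426) and *Nup210l* −0.85 (0.174). Without CtslΔTEC mouse 7 they had 0.35 (0.254), 0.28 (0.233), 0.39 (0.321) and −0.97 (0.164), and without CtslΔTEC mouse 6 *Xpo1* alone passed (0.59, adjusted p = 0.0607). The ratio of transcript classes was higher for 1 member, *Nup88* (0.81, SE 0.22, limma adjusted p = 0.0945), beside 1.86% of genes, and lower for none, beside 0.527%, with shares of 34.8 and 38.8% in CtslΔTEC and 21.8 and 28.2% in control libraries. The median difference was 0.33 over the members, of which 30 of 34 were positive, and 0.32 over all genes. No member was called without stimulated control mouse 5 or either CtslΔTEC mouse, and the 134 genes higher over all genes were 40 without control mouse 5, 1158 without control mouse 6, 85 without CtslΔTEC mouse 6 and 150 without CtslΔTEC mouse 7.

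Markers of other cells and states differed between the genotypes beside these results. All 6 marker genes of CD4CD8 double-positive thymocytes, cells that the sort for CD4 single-positive cells would remove, were detected, led by *Cd8b1* and *Dntt*, whereas *Rag2* and *Ptcra* were at most at 1.90 and 0.931 CPM. Their summed level was 47.6 to 70.6 CPM in control and 197 to 265 CPM in CtslΔTEC unstimulated libraries, and 13.3 to 17.1 and 41.5 to 43.6 CPM in stimulated ones. In stimulated libraries *Cd8b1* made up most of this difference, at 8.89 to 10.3 CPM in control and 35.2 to 35.4 CPM in CtslΔTEC libraries, *Rag1* (0.265 to 0.582 and 1.07 to 1.44 CPM) and *Arpp21* (0.738 to 0.794 and 1.35 to 1.96 CPM) were also higher without overlap, *Dntt* overlapped (2.60 to 4.90 and 3.10 to 5.33 CPM), and *Rag2* and *Ptcra* were under 0.40 CPM in all 4 libraries. Of the 6 activation genes, *Il2* was at 50.7 to 54.4 CPM in stimulated control and at 3.07 to 5.75 CPM in stimulated CtslΔTEC libraries, against the direction of the sum given above. The 6 thymic epithelial genes summed to 9.46 to 11.6 CPM in control and 14.8 to 21.3 CPM in CtslΔTEC unstimulated libraries and to 16.2 to 17.5 and 19.5 to 21.8 CPM in stimulated ones, and *Ctsl* itself was at 6.31 to 8.84 and 11.4 to 17.9 CPM in unstimulated libraries, while *Foxn1*, *Krt5* and *Krt8* were at or near 0 in all libraries. The part of these 3 lists in the differences of *Ncbp1*, *Nup210l*, *Xpo1*, *Nxf1* and *Thoc1* was not tested.

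**Figure D5:**
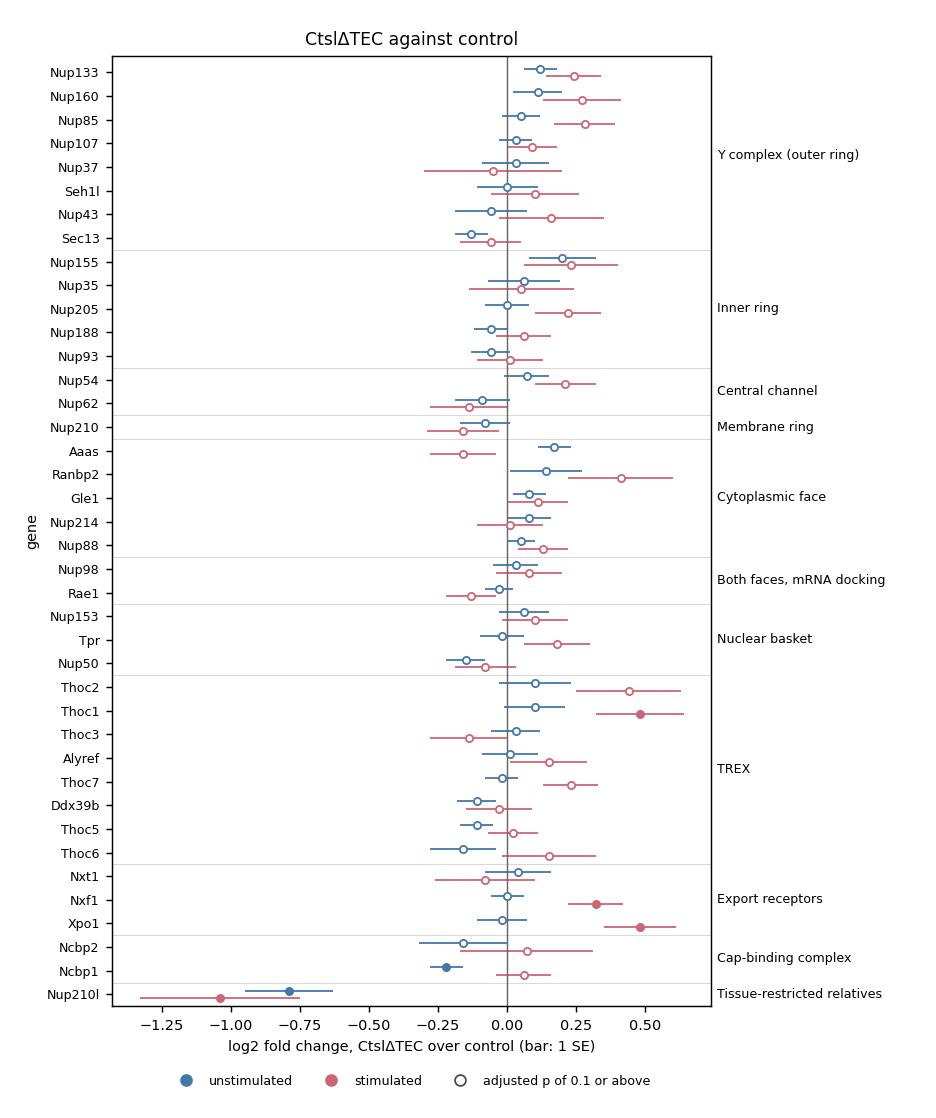
Log2 fold change of 40 members in CtslΔTEC against control cells, unstimulated (blue) and stimulated (red), grouped as in the plot of responses, with bars of 1 SE and open symbols for an adjusted p of 0.1 or above. Most members lie near 0, *Nup210l* is lower in either state, and *Xpo1*, *Nxf1* and *Thoc1* are higher in stimulated CtslΔTEC cells.

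Other genes of the pathway, listed from general knowledge, were compared in the same fits. Of 28 symbols for further pore proteins and export factors 27 were found, and *Zc3h11a* had 2 gene entries, so that 28 entries were tested. Upon stimulation 15 rose and 5 fell in control and 18 rose and 6 fell in CtslΔTEC cells, with medians of 0.29 and 0.43, where 32.9% and 34.8% of all genes were higher and lower in control and 32.9% and 38.2% in CtslΔTEC cells. The largest rises in control cells were those of *Magohb*, a subunit of the exon junction complex (1.83), *Ddx39*, the paralog of *Ddx39b* (1.48), and *Ddx19a*, encoding a helicase of the cytoplasmic face (1.44), and the same genes led in CtslΔTEC cells (2.30, 1.58 and 2.01). The largest falls were those of *Srrt* (−0.49), *Mcm3ap*, the scaffold of the TREX-2 complex (−0.44), and *Ncbp3* (−0.43) in control cells, and of *Nxt2* (−1.52), *Mcm3ap* (−0.53) and *Alkbh5* (−0.43) in CtslΔTEC cells. *Nupl2* rose 1.95-fold in control (log2 0.96, SE 0.17, edgeR adjusted p = 0.000124) and 1.53-fold in CtslΔTEC cells (log2 0.61, SE 0.16, adjusted p = 0.0039), and no value is given for *Nupl1*, for which a single transcript outside the protein-coding class could be matched.

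Karyopherins and Ran cycle genes, which serve protein import and export, also rose for the most part. Of 29 genes, 24 rose and 3 fell in control and 23 rose and 2 fell in CtslΔTEC cells, with medians of 0.77 and 0.87, beside the same shares of all genes. *Ipo4*, an importin for histones and ribosomal proteins, had the largest rise (2.82 and 3.38), followed in control cells by *Rcc1*, the exchange factor of Ran (2.67), and *Kpna2* (2.05). *Kpna4* (−0.47), *Ipo8* (−0.29) and *Xpo6*, the exportin of actin (−0.22), fell in control cells. *Xpot*, the exportin of tRNA, rose (1.92 and 1.85), in contrast to *Xpo1*. Between unstimulated genotypes 6 of these genes were lower in CtslΔTEC cells (8.36% of all genes were), among them *Ipo4* (−0.50, edgeR adjusted p = 0.0121) and *Ipo5* (−0.25, adjusted p = 0.0571), and 1 further export gene, *Ddx19b* (−0.34, adjusted p = 0.0049). Between stimulated genotypes *Ddx19a* was higher (0.44, adjusted p = 0.0224) and *Xpot* lower (−0.28, adjusted p = 0.0726) in CtslΔTEC cells.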

How the data were processed

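RNA of 13 samples of M2 thymocytes was sequenced. The authors quantified transcripts with kallisto 0.48 and deposited unnormalized estimated counts, TPM and effective length per transcript. They tested with DESeq2, and edgeR is the main test here. Of 117497 transcripts 116397 were paired with a gene through GENCODE M21 (GRCm38), and counts and TPM were summed per gene, with counts rounded. At least 99.5% of counts were placed in every library. Genes passing filterByExpr were compared with edgeR 4.0.16 (R 4.3.3), by the quasi-likelihood test with TMM factors and Benjamini-Hochberg adjustment over all genes, at 0.1. The unstimulated comparison used 9 libraries and the others a 4-group model of 13. Transcript class ratios, log2((other + 1)/(coding + 1)) for genes with a mean of at least 10 counts in each class, were tested with limma 3.58.1. CPM are TMM-normalised. A count of 0 allows up to 3 counts, and intervals of this kind cover counting error only.

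Members, gene lists and roles were chosen with earlier results of these data known. Named genes are 18 fixed members and the members past the threshold with the largest changes, up to 6 per direction. The procedure was tested on simulated data with changes larger than the differences between genotypes called here among the members. It thus cannot vouch for calls of that size. Alternatives were DESeq2 1.42.0, other scaling, filters, transcripts, depth and threshold, an offset for length, covariates for Y-linked transcripts and date code, mouse number as a block, other choices of samples, and leaving out each mouse (for transcript ratios, each stimulated mouse). Same-numbered unstimulated mice of the 2 genotypes did not deviate together (r = −0.135, 0.298, −0.0727 and −0.147 for numbers 1 to 4).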

Additional observations from a re-analysis of the deposited data

Results flagged for a closer look

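Among 80 groups of unstimulated libraries, 1 for each tested member and genotype, 6 held a library far from the others, where chance would give about 4. In CtslΔTEC mouse 1, *Ddx39b* was at 8.98 log2 CPM (others 8.71 to 8.77), *Ncbp2* at 4.27 (others 4.97 to 5.08), *Thoc7* at 5.45 (others 5.57 to 5.61) and *Tpr* at 8.58 (others 8.83 to 8.93). *Nup210* in CtslΔTEC mouse 5 was at 9.38 log2 CPM, the others being at 9.33, and *Nup54* in control mouse 3 at 5.03 (others 5.16 to 5.17).

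*Ddx19a*, a helicase gene outside the member rule, responded more in CtslΔTEC cells, with an interaction of 0.57 on the log2 scale (edgeR adjusted p = 0.0347). It stood at 75.8 to 96.2 CPM in unstimulated and 213 and 232 CPM in stimulated control libraries, and at 72.0 to 79.8 CPM and 299 and 307 CPM in CtslΔTEC libraries. *Ddx19a* and its neighbouring paralog *Ddx19b* share sequence, so that the division of reads between them is uncertain.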

How the results depend on the processing

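In the response, members called higher numbered 25 to 33 in all settings. An offset for transcript length left 2 members lower in control and 3 in CtslΔTEC cells, thinning to the smallest library left 3 in CtslΔTEC cells, and *Nup153* in CtslΔTEC cells turned from −0.07 to 0.23 with the offset. Unstimulated CtslΔTEC cells had 1 member higher with DESeq2 and 1 higher and 1 lower with library totals alone, and 0 lower after thinning or with the Y-linked covariate. Mouse numbers did not pair the samples, and a replicate block left 1 member lower. In stimulated cells a minimum of 10 counts in every library gave 6 members higher, a threshold of 0.05 gave 1, and thinning or the 4 stimulated libraries alone gave 0 lower. The interaction was higher for 2 members with DESeq2 or the minimum of 10 counts and for 1 with upper-quartile factors or protein-coding genes alone. Leaving out 1 mouse gave 1 to 3 members lower in unstimulated cells, 0 to 4 higher and 0 to 1 lower in stimulated cells, 3 to 5 lower in the response of CtslΔTEC cells, and 0 to 2 higher and 0 to 1 lower for the interaction. For transcript ratios, leaving out 1 of the 4 stimulated mice, which leaves 1 library in its group, gave 7 to 12 members in control and 10 to 17 in CtslΔTEC responses and 0 to 3 between stimulated genotypes, where a pseudocount of 5 gave 0. The cause of these changes was not tested. Each stimulated group had 2 mice, and the shallowest library 8085463 counts, which limits all comparisons that use stimulated cells, and transcript classes rest on estimated division of reads among overlapping transcripts.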
